A study of Homo sapiens with 12 samples.

Results

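SOX4, MSI2 and NT5E are genes that earlier work tied to leukaemia with mutant CEBPA. The accessible chromatin around them was compared between KO-52 cells transduced with the long or the short CEBPA isoform. KO-52 is an acute myeloid leukaemia line with biallelic CEBPA mutations. CEBPA is read from the same transcript as a full-length protein, p42, or as a shorter protein, p30, which lacks N-terminal activation domains and keeps the DNA binding domain. The members were all regions with an ATAC-seq peak inside the GENCODE gene body or within 50 kb of its ends, and they came to 138 of 355515 regions in the genome, with 17 around SOX4, 90 around MSI2 and 31 around NT5E.

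ATAC-seq reads where the Tn5 transposase cuts open chromatin, and it was performed on nuclei of KO-52 cells transduced with an empty vector (EV), with p42 or with p30. Each line was kept in DMSO or treated with tunicamycin at 2 µg/mL for 8 h, which blocks N-glycosylation and stresses the endoplasmic reticulum. The labels give 2 replicates for each of the 6 conditions, which makes 12 libraries, but the peak lists pool the replicates, so no value here has a replicate spread and no difference between lists was tested. All lines, EV included, share the CEBPA mutations of KO-52. By the paper's account, cells with biallelic mutations typically make p30 as their only isoform with an intact DNA binding domain. Endogenous p30 in the EV and p42 lines was not measured in these data. The study's methods describe KO-52 lines for long-term expression as GFP-sorted pools that carry p42 or p30 fused to ERT2, a tag that keeps a protein out of the nucleus until hydroxytamoxifen is added. The methods describe hydroxytamoxifen given a day ahead to cells with such fusions and to their empty vector controls. The labels of these libraries name neither the fusion nor hydroxytamoxifen, so whether both apply to these cells is not settled by the labels.

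SOX4 is a transcription factor of the SOX C family, and its promoter is known to be repressed by p42, so that loss of p42 raises it in CEBPA-mutant leukaemia. MSI2 is an RNA-binding protein of the Musashi family that holds blood stem cells and leukaemia cells in an immature state by controlling translation. NT5E encodes CD73, an enzyme on the cell surface that turns AMP into adenosine, which damps immune cells through adenosine receptors. MSI2 and NT5E were reported as genes that p30 activates, and the comparison asks whether the regions around these genes differ between p42 and p30 cells in presence or in strength.

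A region is named by the distance of its summit from the main start site of the gene, upstream or downstream in the direction of transcription. Its strength is given as a percentile, the rank of its best peak by −log10 q among all peaks of the same list, where 100 is the strongest, and as summit tags, the number of ATAC-seq tags stacked at the summit. The lists held 187704 to 254239 peaks, and their estimated depth ran from 22250000 tags in EV cells in DMSO to 29980000 in p42 cells in DMSO. Tags were scaled to 10000000 of these, written 10M, and carry exact 95% Poisson intervals, which cover counting error only. The deepest list was that of p42 cells in DMSO, and the absence of a weak peak from a shallower list does not mean that the region is closed. In bulk nuclei, a region open in fewer cells and a region less open in each cell cannot be told apart.

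The sequences below are those of regions that carry the comparisons, 201 bases centred on the strongest summit, from the forward strand of hg38. Capitals mark exact matches to the motifs searched, and a sequence without capitals holds none of them. The first region, in the SOX4 window, and the second, upstream of MSI2, ranked highest in p42 cells. The next sequences hold a match to the C/EBP motif or its composite with AP-1, and the last holds an AP-1 match in a region that was missing from the p42 list in DMSO.

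SOX4 34.6 kb downstream, chr6:21628255-21628455: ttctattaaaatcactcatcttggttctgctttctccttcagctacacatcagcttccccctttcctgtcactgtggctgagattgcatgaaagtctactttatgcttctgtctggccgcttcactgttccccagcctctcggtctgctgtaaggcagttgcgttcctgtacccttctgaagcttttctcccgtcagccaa
MSI2 13.3 kb upstream, chr17:57243171-57243371: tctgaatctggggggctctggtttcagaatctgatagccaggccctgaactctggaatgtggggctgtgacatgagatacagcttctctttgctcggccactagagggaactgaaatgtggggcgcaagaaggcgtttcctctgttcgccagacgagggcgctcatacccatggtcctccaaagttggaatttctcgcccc
SOX4 6.0 kb upstream, chr6:21587611-21587811: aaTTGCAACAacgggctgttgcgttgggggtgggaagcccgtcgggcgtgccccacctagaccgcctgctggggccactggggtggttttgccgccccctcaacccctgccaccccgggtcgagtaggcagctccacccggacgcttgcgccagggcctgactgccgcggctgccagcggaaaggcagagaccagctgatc
MSI2 181.7 kb downstream, chr17:57438083-57438283: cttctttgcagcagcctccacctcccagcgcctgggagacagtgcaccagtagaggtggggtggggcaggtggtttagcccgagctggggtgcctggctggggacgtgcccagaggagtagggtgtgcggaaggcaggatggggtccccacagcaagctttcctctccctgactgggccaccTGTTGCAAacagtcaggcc
MSI2 198.8 kb downstream, chr17:57455210-57455410: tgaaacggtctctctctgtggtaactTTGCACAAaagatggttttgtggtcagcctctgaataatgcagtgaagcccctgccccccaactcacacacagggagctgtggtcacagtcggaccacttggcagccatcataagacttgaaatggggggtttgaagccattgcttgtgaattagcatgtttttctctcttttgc
MSI2 304.6 kb downstream, chr17:57561012-57561212: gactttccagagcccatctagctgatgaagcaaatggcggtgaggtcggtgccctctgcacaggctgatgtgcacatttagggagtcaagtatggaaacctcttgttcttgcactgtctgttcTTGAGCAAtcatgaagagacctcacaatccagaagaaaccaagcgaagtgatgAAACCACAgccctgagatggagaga
NT5E 18.7 kb upstream, chr6:85431312-85431512: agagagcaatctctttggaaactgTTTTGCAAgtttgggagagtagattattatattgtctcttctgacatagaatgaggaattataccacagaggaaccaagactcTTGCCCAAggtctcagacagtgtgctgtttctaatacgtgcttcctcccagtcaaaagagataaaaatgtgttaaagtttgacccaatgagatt
NT5E 33.2 kb downstream, chr6:85483192-85483392: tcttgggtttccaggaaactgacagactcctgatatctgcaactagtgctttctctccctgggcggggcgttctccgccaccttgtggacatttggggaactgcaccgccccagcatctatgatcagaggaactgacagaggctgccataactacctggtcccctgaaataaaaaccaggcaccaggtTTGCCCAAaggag
NT5E 46.3 kb upstream, chr6:85403728-85403928: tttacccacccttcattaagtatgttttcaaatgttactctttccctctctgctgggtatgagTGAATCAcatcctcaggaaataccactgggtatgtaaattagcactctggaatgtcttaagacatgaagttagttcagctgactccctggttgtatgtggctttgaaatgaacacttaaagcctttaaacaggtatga

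SOX4 is a short gene without introns, on chromosome 6 from 21593751 to 21598619 on the plus strand (hg38), and its window was the most evenly accessible of the 3. Of its 17 regions, 11 were found in all 6 lists, which is 64.7% against 32.2% of all regions. A peak in 1 list alone was found for 2 of the 17, against 34.3% of all regions. Only a lncRNA on the opposite strand, ENSG00000283480, and the pseudogene BOLA2P3 share the window, so that no other protein-coding gene overlaps it. The regions of SOX4 were strong and weak side by side: the promoter ranked between 79.3 and 92.8 in the 6 lists, while the regions over the coding sequence 0.8 and 1.6 kb downstream ranked between 12.8 and 48.1.

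The SOX4 promoter region, chr6:21593488-21594061, had 47 summit tags in EV, 50 in p42 and 47 in p30 cells in DMSO, and 41, 38 and 39 tags in the same order after tunicamycin. In percentiles these were 92.8, 90.7 and 89.3 in DMSO, and 81.1, 79.3 and 79.9 after tunicamycin. The promoter was thus accessible at like rank in all 3 lines, and each line ranked it lower after tunicamycin. Per 10M tags the DMSO values were 21.1 (15.5 to 28.1) in EV, 16.7 (12.4 to 22) in p42 and 17.7 (13.0 to 23.6) in p30 cells, and these intervals overlap. The percentile of p42 was 1.35 points above that of p30, a difference that became −0.814 points when all lists were cut to the same number of peaks.

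The region that set the p42 list apart around SOX4 lay 34.6 kb downstream, at chr6:21628245-21628625, between genes. In DMSO it ranked at 97.3 in p42 cells with 31 summit tags, against 81.7 with 17 tags in EV and 68.8 with 13 tags in p30 cells. After tunicamycin it ranked at 83.7 with 19 tags in p42, 68.6 with 13 tags in EV and 75.3 with 15 tags in p30 cells. The p42 list was highest in both treatments, and in DMSO the p30 list was lowest. Scaled to depth, p42 had 10.3 (7.02 to 14.7) and p30 had 4.90 (2.61 to 8.38) tags per 10M in DMSO, so that the counting intervals overlap.

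The opposite order was found 54.9 kb downstream of SOX4, at chr6:21648411-21649072, where the p30 list ranked the region higher than the p42 list in both treatments. The percentiles were 70.0 in EV, 72.3 in p42 and 81.6 in p30 cells in DMSO, and 82.2, 78.3 and 89.8 after tunicamycin. Closer to the gene, the region 9.8 kb downstream ranked at 69.3, 63.5 and 54.3 in DMSO and at 51.3, 27.4 and 25.7 after tunicamycin, in the order EV, p42, p30, so that each line ranked it lower under tunicamycin. The region 4.3 kb upstream moved the other way in EV cells alone, from 72.0 to 89.6, while it went from 86.8 to 80.0 in p42 and from 85.4 to 79.1 in p30 cells; none of these moves was tested. The region 6.0 kb upstream, whose sequence above holds near its start a match to the C/EBP:AP-1 composite, had a peak in all 6 lists at percentiles from 59.3 (p30, DMSO) to 74.1 (p42, DMSO).

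**Figure D1:**
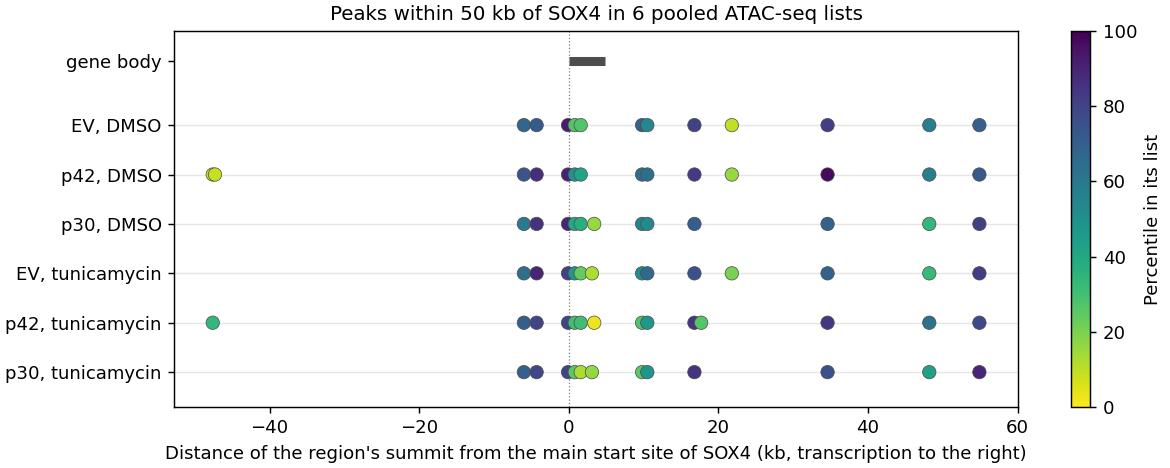
Peaks around SOX4 in the 6 lists. The x axis is the distance of each region's summit from the start site in kb, each row is 1 list, each point is a region with a peak there, and the colour is its percentile in that list. 11 of the 17 regions appear in every row, and the region 34.6 kb downstream is darkest in p42 cells in DMSO, at 97.3.

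MSI2 is a long gene, on chromosome 17 from 57255851 to 57684689 on the plus strand, and most of its 90 regions lay inside it. Introns held 72 of them, and 24 of these were in every list. Over the whole window 31 regions (34.4%) were in all 6 lists, close to the 32.2% of all regions. A peak in 1 list alone was found for 21 of the 90, against 34.3% of all regions. The only other annotated genes in the window are lncRNAs, small RNA pseudogenes and loci yet to be experimentally tested.

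The promoter region of MSI2, chr17:57255975-57257035, has its summit in the first exon, 0.1 kb into the transcript. It had 30 summit tags in EV, 29 in p42 and 32 in p30 cells in DMSO, and 26, 30 and 24 after tunicamycin. Its percentiles were 86.6, 80.9 and 86.4 in DMSO, and 76.9, 85.9 and 74.5 after tunicamycin. The p42 list was thus the lowest of the 3 in DMSO and the highest after tunicamycin. The difference between p42 and p30 in DMSO was −5.53 points, and it became −10.9 points with lists of equal size and −17.5 points among peaks with a −log10 q of at least 10. In DMSO the tags per 10M were 9.67 (6.48 to 13.9) in p42 and 12.1 (8.25 to 17.0) in p30 cells, with overlapping intervals.

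Several regions of MSI2 were strong in every list. The region 82.2 kb downstream, in an intron, ranked between 95.1 and 98.4 in the 6 lists, with 34 to 41 summit tags. The intronic region 198.8 kb downstream, chr17:57454871-57456019, had the most tags of the window, 40 in EV, 53 in p42 and 46 in p30 cells in DMSO, and 46, 42 and 44 after tunicamycin. Its sequence above holds a C/EBP match, and its percentiles ran from 94.6 to 98.9. Neither region set the lines apart: scaled to depth, the second had 17.7 (13.2 to 23.1) tags per 10M in p42 and 17.3 (12.7 to 23.1) in p30 cells in DMSO.

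The region 13.3 kb upstream of MSI2, chr17:57243171-57243627, ranked highest in the p42 lists. It had 20 summit tags in EV, 38 in p42 and 25 in p30 cells in DMSO, at percentiles of 84.2, 99.2 and 91.1. After tunicamycin it had 15, 31 and 18 tags, at percentiles of 73.6, 97.3 and 82.5. The order p42, p30, EV was the same in both treatments. Per 10M tags, p42 had 12.7 (8.97 to 17.4) and p30 had 9.42 (6.10 to 13.9) in DMSO, and 12.2 (8.28 to 17.3) and 7.80 (4.62 to 12.3) after tunicamycin, with overlapping intervals each time.

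A second region of this kind lay 230.6 kb downstream, where the percentile was 92.5 in p42 against 84.4 in p30 cells and 82.1 in EV cells in DMSO. After tunicamycin it was 93.8, 84.4 and 78.7 in the same order. Weaker regions had peaks in p42 lists and little or none elsewhere. The intronic region 304.6 kb downstream, chr17:57561009-57561355, had 16 tags in p42 and 7 in p30 cells in DMSO and 15 tags in p42 cells after tunicamycin, with no peak in the other 3 lists, and its sequence holds a C/EBP and a RUNX match. The region 342.9 kb downstream was found in both p42 lists alone, with 14 tags in DMSO and 8 after tunicamycin. The region 373.1 kb downstream, over an exon of another MSI2 transcript, had 12 tags in p42 and 5 in p30 cells in DMSO and 9 tags in p42 cells after tunicamycin.

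By rank and by peak calls, fewer regions of MSI2 leaned to p30 than to p42. In DMSO p42 ranked higher at 27 of 45 MSI2 regions with a peak in both lists, against 61.8% of all such regions. Ranks and calls are not scaled to depth, and the p42 list in DMSO was the deepest. Whether fewer regions leaned to p30 after scaling to depth was not counted. The intronic region 84.1 kb downstream had 9 tags in p42 and 17 in p30 cells in DMSO and 8 and 11 after tunicamycin, at percentiles of 25.4, 63.2, 12.5 and 36.5. The region 204.8 kb downstream had a peak in p30 cells in DMSO with 10 tags and none in EV or p42 cells there, and after tunicamycin it had 5 to 7 tags in all 3 lines. The regions 166.4 and 281.2 kb downstream also ranked higher in p30 than in p42 cells in both treatments. The first ranked at 71.6 in p42 and 84.7 in p30 cells in DMSO and at 75.7 and 81.0 after tunicamycin. The second ranked at 49.7 and 70.9 in DMSO and at 41.3 and 66.2 after tunicamycin. The regions 84.1, 166.4 and 204.8 kb downstream hold an AP-1 match.

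The region 181.7 kb downstream, chr17:57438022-57438589, was the only member whose counting intervals did not overlap in the comparisons made, which were p42 with p30 in DMSO and after tunicamycin and p42 with EV in DMSO. It had 24 summit tags in EV, 11 in p42 and 19 in p30 cells in DMSO, and 12, 11 and 12 after tunicamycin. Its percentile in DMSO was 76.9 in EV, 30.5 in p42 and 62.1 in p30 cells, and after tunicamycin it was 29.5, 37.8 and 26.0. The EV and p30 lists thus ranked it high in DMSO and low after tunicamycin, while the p42 list ranked it low in both. Per 10M tags, EV had 10.8 (6.91 to 16.0) and p42 had 3.67 (1.83 to 6.56) in DMSO, and its sequence holds a C/EBP:AP-1 match on the plus strand.

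**Figure D2:**
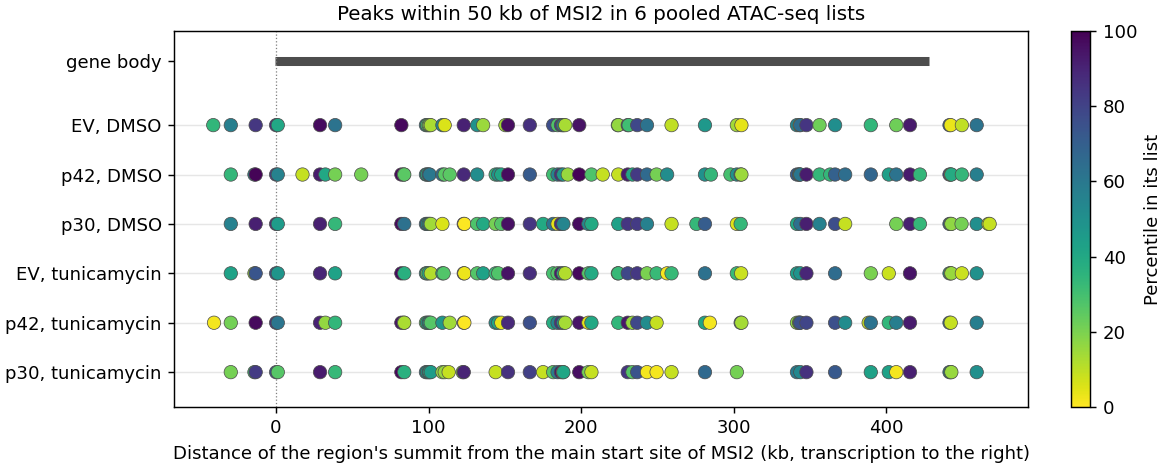
Peaks around MSI2 in the 6 lists, drawn as for SOX4, with the distance from the main start site in kb on the x axis and the percentile as colour. The dark columns at 82.2, 198.8 and 415.6 kb are regions that rank above 90 in each list, and pale points that stand in few rows are the weak regions.

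NT5E lies on chromosome 6 from 85449584 to 85495791 on the plus strand. Of its 31 regions, 10 (32.3%) were in all 6 lists and 11 in 1 list. Over all regions these shares were 32.2% and 34.3%. Introns held 14 regions and the upstream flank 10. The downstream end of the window reaches SNX14, a sorting nexin gene, and the protein-coding gene ENSG00000271793 that shares its end, both on the opposite strand.

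The NT5E promoter region, chr6:85449918-85450740, with its summit 0.1 kb upstream of the main start site, differed little between lists. It had 18 summit tags in EV, 24 in p42 and 21 in p30 cells in DMSO, and 20, 22 and 22 after tunicamycin. The percentiles were 69.3, 78.2 and 75.6 in DMSO and 73.1, 75.3 and 76.8 after tunicamycin, so p42 exceeded p30 by 2.52 points in DMSO, a difference that became −2.63 points with lists of equal size and −0.268 points when peaks were ranked by fold enrichment. Scaled to depth the values were 8.09 (4.79 to 12.8) in EV, 8.00 (5.13 to 11.9) in p42 and 7.92 (4.90 to 12.1) in p30 cells in DMSO.

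The strongest regions of the window lay inside the gene. The region 20.2 kb downstream, chr6:85470067-85470522, ranked at 95.2, 93.9 and 93.3 in EV, p42 and p30 cells in DMSO, and lower in each line after tunicamycin, at 87.3, 85.8 and 83.6. It overlaps the promoter window of a shorter NT5E transcript. The region 33.2 kb downstream, chr6:85483076-85483513, whose sequence holds a C/EBP match, had 29 tags in EV, 35 in p42 and 27 in p30 cells in DMSO, and 25, 35 and 20 after tunicamycin. The p42 list ranked it highest in both treatments, at 96.3 and 98.1, against 91.3 and 81.0 in p30 cells. After tunicamycin p42 had 13.8 (9.58 to 19.1) and p30 had 8.67 (5.29 to 13.4) tags per 10M, and the intervals overlap.

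The region 43.5 kb downstream was a p42 region of NT5E, with 16 tags in p42 cells in DMSO and 12 after tunicamycin, 5 tags in EV cells after tunicamycin, and no peak in either p30 list. A further 6 regions, among them those 4.6, 14.5 and 16.7 kb upstream, were found in the p42 list in DMSO alone, at percentiles of at most 46.7. That list was the deepest and had a peak at 69.3% of all regions. Over the genome, 34.3% of all regions had a peak in a single list, so these calls alone do not set NT5E apart. The region 18.7 kb upstream, whose sequence holds a pair of C/EBP matches, changed order with the treatment: in DMSO it had 10 tags in p42 and 4 in p30 cells, and after tunicamycin 5 and 9.

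Some regions of NT5E leaned to p30. The region 46.3 kb upstream, chr6:85403440-85403871, had 12 tags in EV and 13 in p30 cells in DMSO and no peak in p42 cells, and after tunicamycin 13 tags in EV, 7 in p42 and 15 in p30 cells. The region 48.4 kb upstream, with a peak in every list, had 9, 8 and 13 tags in EV, p42 and p30 cells in DMSO and 14, 11 and 21 after tunicamycin, at percentiles of 29.9 in p42 and 58.9 in p30 cells in DMSO and 53.8 and 80.4 after tunicamycin. Inside the gene, the region 5.6 kb downstream, with a PU.1 match, ranked at 30.3 in p42 and 47.5 in p30 cells in DMSO and at 16.1 and 63.4 after tunicamycin. At that region EV ranked at 59.8 in DMSO and 62.6 after tunicamycin, nearer to p30 than to p42. Past the end of the gene, the region 49.1 kb downstream also ranked lower in p42 than in p30 cells, at 64.8 and 73.7 in DMSO and at 60.1 and 71.6 after tunicamycin.

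**Figure D3:**
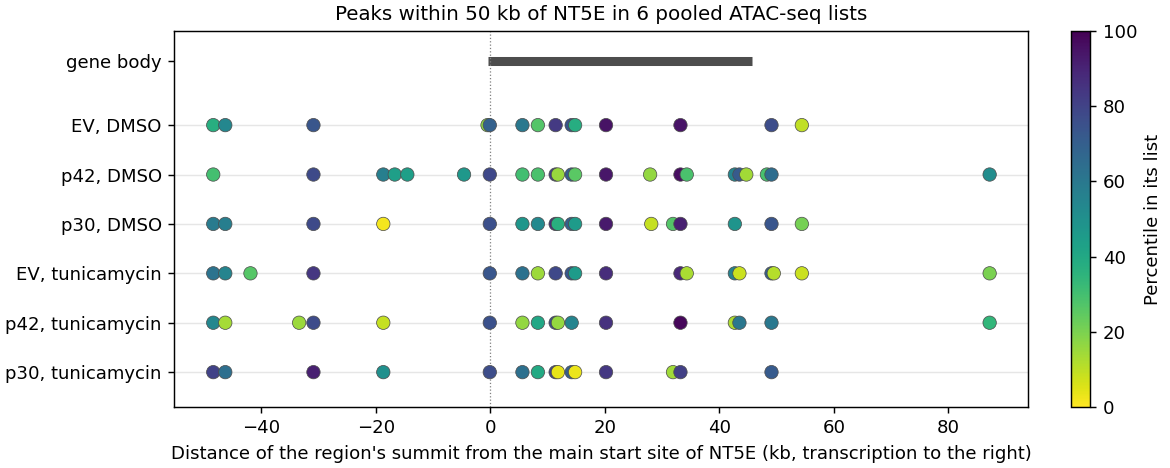
Peaks around NT5E in the 6 lists, drawn as for SOX4, with the distance from the main start site in kb on the x axis and the percentile as colour. The regions 20.2 and 33.2 kb downstream are dark in every row, and the region 43.5 kb downstream appears in both p42 rows and in EV cells after tunicamycin.

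**Figure D4:**
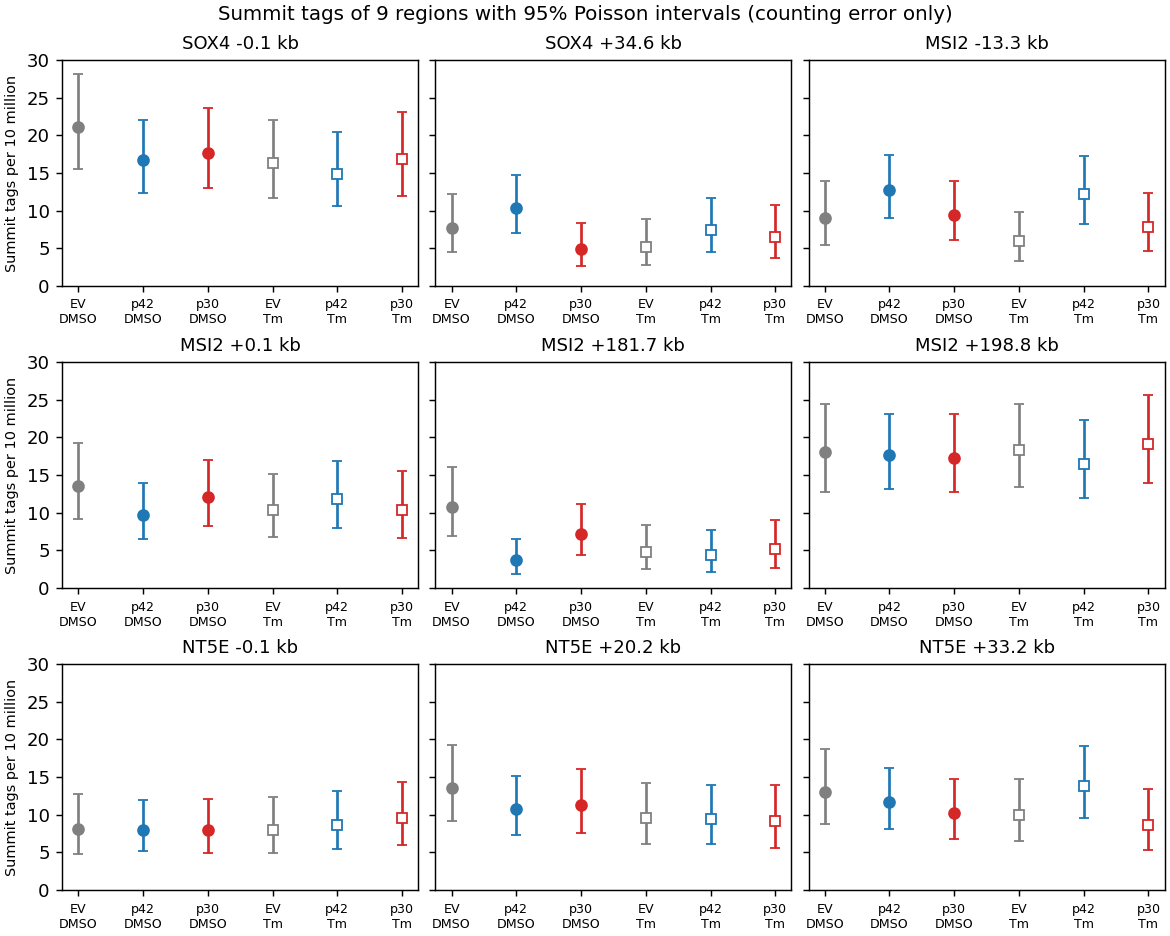
Summit tags per 10M estimated tags (y axis) of 9 regions in the 6 lists (x axis). Filled circles are DMSO, open squares tunicamycin (Tm), and the bars are exact 95% Poisson intervals, which cover counting error only. The bars of p42 and p30 overlap in each panel and treatment, and those of EV and p42 in DMSO are apart only 181.7 kb downstream of MSI2.

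Counted over the windows, p42 cells had more regions to themselves than p30 cells, by about as much as in the genome as a whole. In DMSO, 34 of the 104 members with a peak in p42 cells had none in p30 cells (32.7%), against 36.1% of all regions with a p42 peak, and 15 of 85 members with a p30 peak had none in p42 cells (17.6%), against 21.0%. By gene, the p42 regions without a p30 peak were 3 of 14 for SOX4, 22 of 67 for MSI2 and 9 of 23 for NT5E, and the p30 regions without a p42 peak were 1 of 12, 10 of 55 and 4 of 18. They were mostly weak, with a median percentile of 29.4 in the p42 list and 21.0 in the p30 list. With lists of equal size the counts over the 3 windows were 24 of 84 (28.6%) and 19 of 79 (24.1%). The shares over all regions were then 26.0% and 25.2%.

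After tunicamycin 23 of 89 members with a p42 peak had none in p30 cells, which is 25.8% against 30.8% of all regions, and 12 of 78 with a p30 peak had none in p42 cells, 15.4% against 20.4%. With lists of equal size the order turned, to 11 (15.5%) and 18 (23.1%) members, and it turned over all regions too, at 24.1% and 25.3%. Among peaks with a −log10 q of at least 10 the members were 3 of 28 (10.7%) and 8 of 33 (24.2%), against 23.3% and 14.1% of all regions, so that the members then had the opposite order to the genome. Regions that were in both p42 lists but in neither p30 list numbered 1 for SOX4, 7 for MSI2 and 2 for NT5E, or 10 of 138 members against 6.42% of all regions. The reverse pattern had 0, 2 and 1 regions, or 3 of 138 against 2.14%.

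Against the empty vector, p42 cells in DMSO had a peak at 39 of 104 members where EV cells had none (37.5%, against 39.9% of all regions with a p42 peak), with 2 of 14 at SOX4, 25 of 67 at MSI2 and 12 of 23 (52.2%) at NT5E. The reverse held for 12 of 77 (15.6%, against 17.4%). In p30 cells 21 of 85 members lacked an EV peak (24.7%, against 26.0%), and 13 of 77 EV members lacked a p30 peak (16.9%, against 17.7%). The shares over the members lay close to those over all regions, while single windows stood on either side of them.

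Among members with a peak in both isoform lists in DMSO, the percentile was higher in p42 than in p30 cells for 43 of 70 (61.4%), against 61.8% of all such regions. The genes differed in this: p42 was higher at 10 of 11 SOX4 regions with a median difference of 9.24 points, at 27 of 45 MSI2 regions with a median of 1.41 points, and at 6 of 14 NT5E regions with a median of −3.10 points. The median over all regions was 3.16 points. Percentiles are not scaled to depth, and the p42 list in DMSO held 253747 peaks against 207278 in the p30 list. Scaled to depth, the SOX4 regions lay on both sides. The SOX4 promoter had 16.7 tags per 10M in p42 and 17.7 in p30 cells in DMSO. The SOX4 region 34.6 kb downstream had 10.3 and 4.9. After tunicamycin p42 was higher at 7 of 11, 23 of 42 and 4 of 13 regions, with medians of 0.907, 1.25 and −11.4 points, against 2.21 points over all regions. By rank, NT5E was thus the window where p30 stood higher at more regions in both treatments, and the medians rest on few regions. Scaled to depth, MSI2 regions too lay on both sides in DMSO. The MSI2 region 166.4 kb downstream had 4.67 tags per 10M in p42 and 8.29 in p30 cells. That 13.3 kb upstream had 12.7 and 9.42. The depth-scaled order was not counted over the windows.

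**Figure D5:**
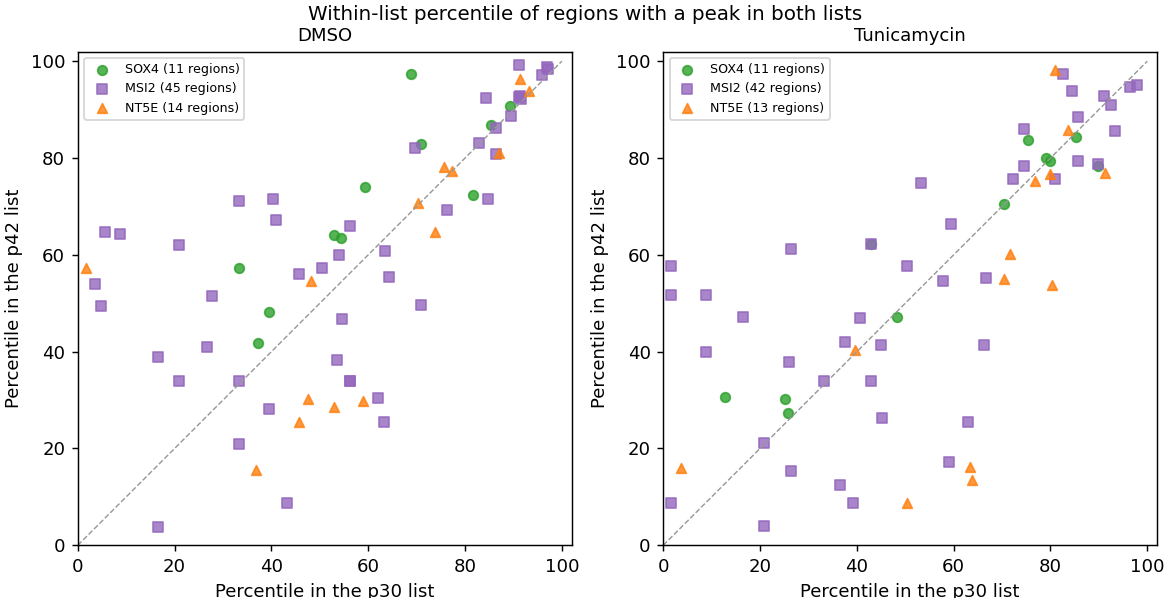
Percentile of each region in the p42 list (y axis) against the p30 list (x axis), for regions with a peak in both, in DMSO (left) and after tunicamycin (right). In DMSO 10 of the 11 SOX4 points lie above the dashed line of equal rank, and 6 of the 14 NT5E points do. Ranks are taken within each list and are not scaled to depth.

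In summit tags the isoforms were not separated at any member: the intervals of p42 and p30 overlapped at all 70 members with a peak in both lists in DMSO and at all 66 after tunicamycin. Over all regions such separation was rare too, with p42 above p30 at 0.0966% and p30 above p42 at 0.141% in DMSO, and 0.0565% and 0.102% after tunicamycin. Of the 65 members with a peak in EV and p42 cells in DMSO, 1 had EV above p42, the MSI2 region 181.7 kb downstream, and 0 had p42 above EV, against 0.366% and 0.0439% of all regions. With 4 to 53 tags at a summit, only large differences could have separated the intervals.

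Between the DMSO and the tunicamycin list of each line, regions were gained and lost as calls, and the lists differ in depth. In EV cells 20 of 86 members with a peak after tunicamycin had none in DMSO (23.3%, against 22.5% of all regions), and 11 of 77 were lost (14.3%, against 20%). In p42 cells 11 of 89 were gained (12.4%, against 16.0%) and 26 of 104 lost (25.0%, against 31.1%). In p30 cells 10 of 78 were gained (12.8%, against 17.3%) and 17 of 85 lost (20%, against 27.2%). By gene, p30 cells gained 1 region at SOX4, 9 at MSI2 and 0 at NT5E, and p42 cells lost 2, 16 and 8. Among peaks with a −log10 q of at least 10 few regions were left. The balance then turned in EV cells, to 3 gained and 4 lost, and in p30 cells, to 5 gained and 1 lost. Shares over all regions were not computed at that threshold, so this turn cannot be set against the genome.

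Among members with a peak in both treatments, the percentile was lower after tunicamycin at 40 of 66 in EV, 52 of 78 in p42 and 45 of 68 in p30 cells. The median changes were −1.57, −4.54 and −4.36 points. The percentile was higher at 39.4%, 33.3% and 33.8% of these members, against 53.2%, 38.9% and 39.3% of all such regions. Over all regions the medians were 0.752, −2.95 and −1.81 points. The SOX4 promoter, the SOX4 region 9.8 kb downstream and the NT5E region 20.2 kb downstream were among those lower in all 3 lines. The NT5E region 30.9 kb upstream went from 73.3 to 84.0 in EV and from 77.4 to 91.2 in p30 cells, and from 77.4 to 77.0 in p42 cells.

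Motifs were searched as exact letters on both strands in the 201 bases around each summit. The C/EBP motif (TTGCNNAA) was found in 14 members, 1 at SOX4, 11 at MSI2 and 2 at NT5E, which is 10.1% against 13.1% of all regions. The C/EBP:AP-1 composite (TGTTGCAA), part of whose letters also belong to the C/EBP motif, was found in 4 members (2.9% against 1.17%), and the ATF4 composite (TGATGCAA) in 0 (against 1.25%). AP-1 (TGANTCA) was found in 16 members, 12 at MSI2 and 4 at NT5E (11.6% against 12.9%). PU.1 (GAGGAAGT) was found in 6 (4.35% against 6.86%), RUNX (TGTGGTTT) in 6, all at MSI2 (4.35% against 4.59%), and the letters AGATAAG of the GATA factors in 7 (5.07% against 3.22%).

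Of the 14 members with a C/EBP match, 7 had a peak in EV, 12 in p42 and 9 in p30 cells in DMSO, and 8, 11 and 10 after tunicamycin. Over all regions with this match 41.9% had a peak in EV, 76.8% in p42 and 46.5% in p30 cells in DMSO, and 43.4%, 59.2% and 41.4% after tunicamycin. Of the 16 members with an AP-1 match, 10 had a peak in EV and 11 in each of p42 and p30 cells in DMSO, against 56.7%, 64.6% and 60% of all regions with that match. The count of C/EBP members was highest in p42 cells in DMSO, the longest list, which held 104 of all 138 members. With or without a match, 50.4% of all regions had a peak in EV, 69.3% in p42 and 56.0% in p30 cells in DMSO. A match is a description of letters, and no binding was measured here.

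The genes related to the 3 members had accessible promoters in nearly every list. Of 19 genes, which include the members, other SOX C and Musashi genes, the adenosine pathway and the reported p30 target GATA2, 18 had a peak within 1 kb of a start site in p42 and in p30 cells in DMSO, and 16 in all 6 lists, while 76.4% of protein-coding genes had such a peak in all 6. None had a promoter peak in p42 and not in p30 cells in DMSO or the reverse, against 2.95% and 1.29% of protein-coding genes. SOX11, a SOX C gene of neural cells, had no promoter peak in any list, and its relative SOX12 ranked from 79.8 to 87.1. MSI1, the Musashi gene of neural stem cells, had weak promoter peaks in 4 lists with 6 to 8 tags, and NUMB, a cell fate gene whose mRNA Musashi proteins bind, ranked from 97.6 to 99.3.

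In the adenosine pathway, 11 of 12 genes had a promoter peak in all 6 lists. ENTPD1, which encodes CD39 and makes the AMP that CD73 uses, had 12 summit tags in EV, 30 in p42 and 18 in p30 cells in DMSO, and 14, 27 and 18 after tunicamycin. It ranked highest in p42 cells in both treatments, at 86.5 and 85.9 against 71.2 and 71.5 in p30 cells. The tags of the related genes are not scaled to depth and carry no intervals here, and no difference was tested. The receptor gene ADORA2B ranked at 78.4, 89.7 and 63.8 in EV, p42 and p30 cells in DMSO and at 75.7, 74.6 and 77.2 after tunicamycin. ADORA1, another receptor, lacked a peak in EV cells in DMSO and ranked at 64.0 in p42 and 59.1 in p30 cells, and after tunicamycin at 37.8 in EV, 71.6 in p42 and 12.2 in p30 cells. GATA2, a factor of blood stem cells, ranked lower in p42 than in p30 cells in both treatments, at 66.8 and 76.7 in DMSO and at 59.5 and 71.4 after tunicamycin.

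Promoter peaks did not serve to check the cell type. All 8 blood genes examined, PTPRC, SPI1, CD33, MPO, CD34, KIT, LYZ and RUNX1, had a promoter peak in every list, but so did CD3E, EPCAM and COL1A1, which mark other cell types. ALB had a weak promoter peak in both p42 lists and MYOD1 in the p42 list in DMSO. The identity of the cells therefore rests on the labels.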

How the data were processed

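ATAC-seq was performed by the authors on 12 libraries of KO-52 cells. Per the submitters' processing notes and the study's methods, reads were trimmed with Trim Galore 0.6.6, aligned to hg38 with Bowtie2 2.4.4, cleared of duplicates with Picard, and peaks were called with MACS2 on pooled replicates of each condition. A shift for the Tn5 cut and a filter on mitochondrial reads are not given in the sources used here. Each deposited list gives per peak the fold enrichment over local background, −log10 p and −log10 q, a score derived from the latter and the summit as a distance from the peak's start, none of them normalized between lists. The score was not analysed.

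Peaks on chromosomes 1 to 22, X and Y that overlapped by at least 1 bp were merged into common regions, and each region took its best peak per list. Summit tags and background were solved from fold enrichment and −log10 p, and came out whole (within 0.01 of −log10 p) for 100.0% of peaks in each list. Depth was estimated from the lowest background, the shortest peak and a genome of 2700000000 bp. The recovery was checked on simulated data. Genes are from GENCODE release 44. Regions were named by rule: promoters, the strongest regions, the largest differences between p42 and p30, regions of a single isoform, regions gained or lost with tunicamycin, and composite motif matches. The members and gene lists were chosen with earlier results of these data known. With 1 pooled list per condition no test was run. An item of the marker list is not reported here. Stricter thresholds, equal list sizes, a depth-scaled threshold, a 50% overlap, other windows and promoters and ranks by fold enrichment were tried. Python 3.11.15, numpy 2.4.6, pandas 2.3.3, scipy 1.17.1 and matplotlib 3.10.9 were used.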

Additional observations from a re-analysis of the deposited data

Results flagged for a closer look

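At 9 of the 59 members with a peak in all 4 lists of p42 and p30 cells (15.3%, against 7.79% of the 124868 such regions in the genome), the percentile moved with tunicamycin by at least 10 points in opposite directions in the isoforms. With 1 pooled list per condition, the difference between the isoforms was not tested at any of them. At weak peaks a few tags moved the percentile by 10 points or more. Of the MSI2 regions, the region 100.1 kb downstream moved by −11.8 points in p42 and 25.7 in p30 cells. It went from 16 to 12 summit tags and from 11 to 16. That at 109.1 kb moved by −17.7 and 10.9 points, from 13 to 9 tags and from 6 to 6. That at 144.0 kb moved by 17.8 and −12.2 points, from 7 to 9 tags and from 6 to 5. That at 206.8 kb moved by 11.8 and −30.8 points, from 7 to 8 tags and from 8 to 5. The MSI2 region 341.5 kb downstream moved by −54.3 points in p42 and 18.7 in p30 cells, from 17 to 7 summit tags and from 10 to 12. The MSI2 region at 343.7 kb moved by 13.9 and −10.1 points, from 16 to 20 tags and from 17 to 13.

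Of the NT5E regions, the region 18.7 kb upstream moved by −48.6 points in p42 and 48.6 in p30 cells, from 10 to 5 tags and from 4 to 9. The NT5E region 5.6 kb downstream moved by −14.2 and 15.9 points, from 9 to 8 tags and from 12 to 15. That at 8.3 kb moved by 11.8 and −13.3 points, from 12 to 13 tags and from 17 to 14. No SOX4 region moved in this way.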

How the results depend on the processing

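No paired analysis was possible because the lists pool both replicates of a condition, and leaving out a replicate was not run for the same reason. With a depth-scaled threshold all 15 values recomputed stayed within 1.5 times (counts) or 1 point (percentiles). A −log10 q of at least 10 left few regions: in DMSO the p42 regions without a p30 peak became 1, 5 and 1 for SOX4, MSI2 and NT5E, and the reverse 0, 2 and 1. Tunicamycin then gained 3 and lost 4 regions in EV, gained 1 and lost 6 in p42, and gained 5 and lost 1 in p30 cells, and the promoter difference p42 minus p30 became 2.55, −17.5 and 4.19 points. With equal list sizes SOX4 had 0 p42 regions without a p30 peak, p42 cells gained 7 regions with tunicamycin, and the promoter differences became −0.814, −10.9 and −2.63 points, so that SOX4 and NT5E changed sign. Ranked by fold enrichment they were 3.81, −6.61 and −0.268 points. The cause of these shifts was not tested. With a 50% overlap the counts for SOX4 became 6 and 2, MSI2 had 20 p30 regions without a p42 peak, and 22 regions were lost in EV and 27 in p30 cells. A 20 kb flank left 1 p42 region without a p30 peak at SOX4. A 100 kb flank gave 27 and 54 regions for SOX4 and NT5E, 6 and 2 isoform regions for SOX4 and 16 and 7 for NT5E (p42, then p30), and 17 lost in EV cells. The promoter counts of related genes stayed at 15 to 18. Depth limits all calls: the weakest peaks rest on 4 tags.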
